A study of Mus musculus with 18 samples.

Results

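The nuclear-encoded subunits of the mitochondrial respiratory chain and ATP synthase were examined in liver RNA from 18 mice of a chronic-plus-binge ethanol model. The members were all genes whose symbol begins as a named subunit does, with *Ndufa*, *Ndufb*, *Ndufc*, *Ndufs* or *Ndufv* followed by a digit for complex I, *Sdha* to *Sdhd* for complex II, *Uqcr* for complex III, *Cox4* to *Cox8* followed by a letter for complex IV and *Atp5* for complex V. This gave 83 genes of the 15052 in the table, with 40 in complex I, 4 in complex II, 8 in complex III, 13 in complex IV and 18 in complex V. Of these, 80 are annotated as protein-coding, *Ndufb4c* and *Ndufs6b* as processed pseudogenes and *Ndufb1* as a long non-coding RNA. The values are normalized read counts, that is, reads per gene scaled by the study's authors to a nearly equal total in each mouse, which lay between 32267493 and 32292618.

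The mice were C57BL/6J (WT) or carried a whole-body deletion of *Apoe* (*Apoe* KO), the gene of the lipid-carrying protein apolipoprotein E, and were 10 to 12 weeks old. After 5 days of acclimation to liquid diet, EtOH-fed mice received 5% v/v ethanol for 10 days and a gavage of 5 g/kg ethanol on day 11. Pair-fed mice received the control diet and 9 g/kg dextrin-maltose, and all livers were taken 9 h after the gavage. Pair-fed groups held 4 WT and 5 *Apoe* KO mice, and EtOH-fed groups 5 WT and 4 *Apoe* KO mice, the latter numbered 1, 2, 4 and 5. Because the deletion was whole-body, an effect within the liver cannot be told apart from one of altered blood lipids. All mice are labelled female, yet EtOH-fed *Apoe* KO mouse 1 had an *Xist* value of 826, against 15227 or more in every other mouse, and a *Ddx3y* value of 1077, against at most 118. Member medians and calls, and the list genes named, are therefore given with and without it where it enters the comparison. *Apoe* itself lay between 611230 and 798431 in WT mice and between 8586 and 108651 in KO mice. *Alb*, the main secreted protein of hepatocytes, lay between 1547096 and 3032672 and all 10 hepatocyte markers were in the table, while none of 7 adipocyte markers and 1 of 12 striated muscle markers were. Values that jumped over whole numbers showed that 11 mice had been scaled up. Their estimated depths ran from 5.54 M reads in pair-fed WT mouse 1 to 29.0 M reads, so that weakly expressed members were measured less precisely in them. The scaled-up mice were pair-fed WT mice 1 to 4 and pair-fed *Apoe* KO mice 1, 3 and 4. On EtOH they were WT mouse 4 and *Apoe* KO mice 2, 4 and 5. Scaling up was thus uneven across the groups compared, and its part in the member differences was not tested. In bulk liver RNA, fewer cells of a type and less RNA per cell cannot be told apart.

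The respiratory chain passes electrons from NADH (complex I) and succinate (complex II) through ubiquinone to complex III, then through cytochrome c to oxygen at complex IV, and the proton gradient built on the way drives ATP synthesis at complex V. Each complex except II joins a few subunits encoded by mitochondrial DNA with many encoded in the nucleus. In the nuclear set, core subunits carry the redox centres, the catalytic sites or the central frame, and accessory (supernumerary) subunits, most of them short proteins, surround and stabilize them. Hepatocytes depend on the chain to reoxidize the NADH that ethanol breakdown produces.

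The promoters of these genes are known for sites of nuclear respiratory factor 1 (NRF1), GABPA, YY1, CREB and the oestrogen-related receptor alpha (ERRA). RefSeq promoters (GRCm38.p6; 250 bases before to 50 after the gene start) were available for 67 of the protein-coding members, against 10715 genes of the table. Searched on both strands, the letters GCATGCGC (core of the NRF1 motif) were found in 10 member promoters (14.9%) and 5.66% of all promoters. AAGATGGCG (YY1) was found in 7 (10.4%) against 3.35%, TGACGTCA (cyclic AMP response element, CRE) in 4 (5.97%) against 3.44%, TCAAGGTCA (ERRA) in 2 (2.99%) against 0.345%, CCGGAAG (GABPA) in 17 (25.4%) against 18.9% and CACGTG (E-box) in 7 (10.4%) against 11.5%. The NRF1 letters can overlap their own reverse complement, so that both strands match at 1 place, and a promoter with both was counted once. A match of letters is a description and not a bound site. The following stretches of 150 bases just upstream of the gene start are shown because they belong to members of 4 complexes that behaved differently in the comparisons, with the matched letters in capitals, on whichever strand they occur. *Ndufa11* (chr17:56717612-56717761, plus strand) holds the NRF1 letters, *Ndufb2* (chr6:39592415-39592564, plus strand) a CRE, *Sdhd* (chr9:50603850-50603999, minus strand) the GABPA letters and *Atp5mc3* (chr2:73911327-73911476, minus strand) the ERRA letters, while *Cox8a* (chr19:7217617-7217766, minus strand) holds none of the 6 in this stretch. Within the whole 300 bases, but outside these stretches, *Cox8a* also holds the GABPA letters, *Ndufa11* a CRE, *Sdhd* the ERRA letters and *Atp5mc3* an E-box.
Ndufa11: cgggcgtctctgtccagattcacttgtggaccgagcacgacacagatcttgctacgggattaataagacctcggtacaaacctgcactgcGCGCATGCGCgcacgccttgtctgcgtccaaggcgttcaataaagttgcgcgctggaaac
Ndufb2: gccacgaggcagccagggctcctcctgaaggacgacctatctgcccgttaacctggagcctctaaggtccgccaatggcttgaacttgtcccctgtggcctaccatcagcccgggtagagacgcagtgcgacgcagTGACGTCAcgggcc
Sdhd: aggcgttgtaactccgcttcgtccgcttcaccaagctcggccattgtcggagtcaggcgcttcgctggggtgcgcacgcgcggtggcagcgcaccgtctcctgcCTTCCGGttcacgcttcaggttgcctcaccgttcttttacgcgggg
Cox8a: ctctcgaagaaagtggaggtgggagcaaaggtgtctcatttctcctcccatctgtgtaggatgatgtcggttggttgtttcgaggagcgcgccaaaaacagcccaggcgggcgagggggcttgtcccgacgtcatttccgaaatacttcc
Atp5mc3: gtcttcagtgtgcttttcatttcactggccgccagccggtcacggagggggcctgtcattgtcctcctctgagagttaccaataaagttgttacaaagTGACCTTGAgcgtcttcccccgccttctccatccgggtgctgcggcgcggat

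Members were expressed over a wide range, with means over all mice of 27.3 to 35685, and 9 of them had means below 1000. Compared per kilobase of transcript, *Uqcrq*, a small subunit of complex III, was the highest member in all 4 groups, with means per kilobase of 35788 normalized read counts (WT) and 24845 (*Apoe* KO) on the control diet and 28188 (WT) and 23935 (*Apoe* KO) on EtOH. *Atp5mc3*, a copy of the c-ring subunit that turns with proton flow, was the next in every group (22134, 19602, 20563 and 20157 per kilobase in the same order). *Atp5f1b*, the catalytic beta subunit of ATP synthase, moved from rank 8 (16233 per kilobase) in pair-fed WT to rank 3 in the other groups (18600, 19693 and 19711). Within complex II, the pair-fed WT levels per kilobase ran from *Sdhb* (5067) and *Sdhd* (4450) to *Sdha* (4023) and *Sdhc* (1927). The lowest members were *Ndufa4l2* (52.2 per kilobase in pair-fed WT), *Cox6b2* (67.7), the pseudogene *Ndufb4c* (84.0) and *Cox7a1* (183).

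**Figure D1:**
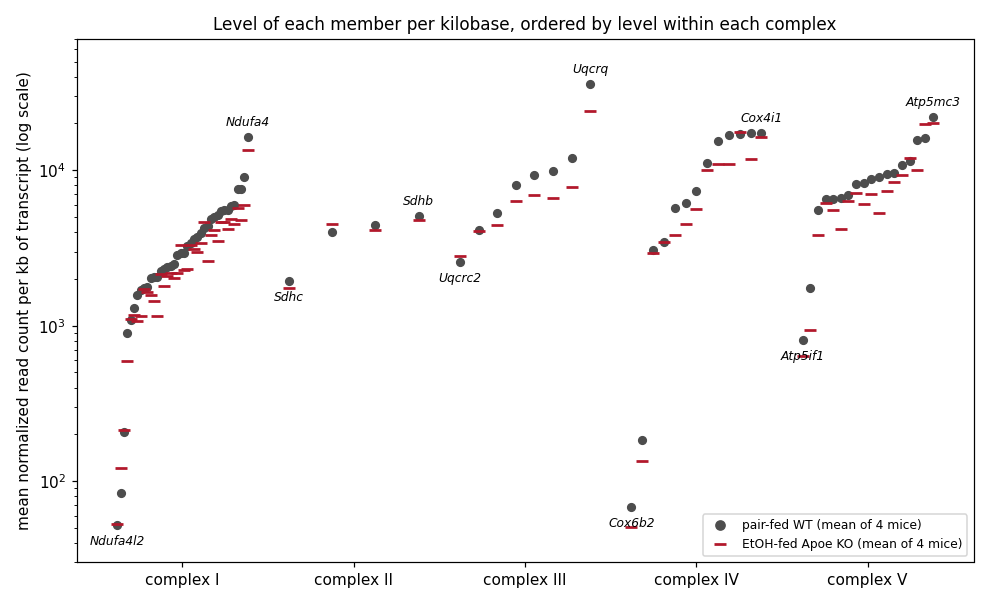
Mean normalized read count per kilobase of transcript (log scale) of each member, ordered by level within its complex, for pair-fed WT (points, mean of 4 mice) and EtOH-fed *Apoe* KO mice (dashes, mean of 4 mice). *Uqcrq* is highest in both (points at 35788, dashes at 23935), and *Ndufa4l2* lies near 52.2.

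The summed share of all normalized reads taken by the members averaged 1.34% ± 0.0775 (SD, n = 4) in pair-fed WT, 1.19% ± 0.107 (n = 5) in pair-fed *Apoe* KO, 1.22% ± 0.129 (n = 5) in EtOH-fed WT and 1.17% ± 0.102 (n = 4) in EtOH-fed *Apoe* KO mice. In log2 units, the mean deviation of the 83 members from each gene's own mean was 0.03, 0.27, 0.11 and 0.34 in pair-fed WT mice 1 to 4. It was -0.03, -0.37, 0.06, 0.00 and 0.04 in pair-fed *Apoe* KO mice 1 to 5, and -0.13, -0.07, 0.16, -0.20 and 0.23 in EtOH-fed WT mice 1 to 5. In EtOH-fed *Apoe* KO mice 1, 2, 4 and 5 it was 0.08, -0.21, -0.26 and -0.04. All 4 pair-fed WT mice were thus above the average of their genes, with mice 2 and 4 highest, and pair-fed *Apoe* KO mouse 2 was the lowest of the 18.

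**Figure D2:**
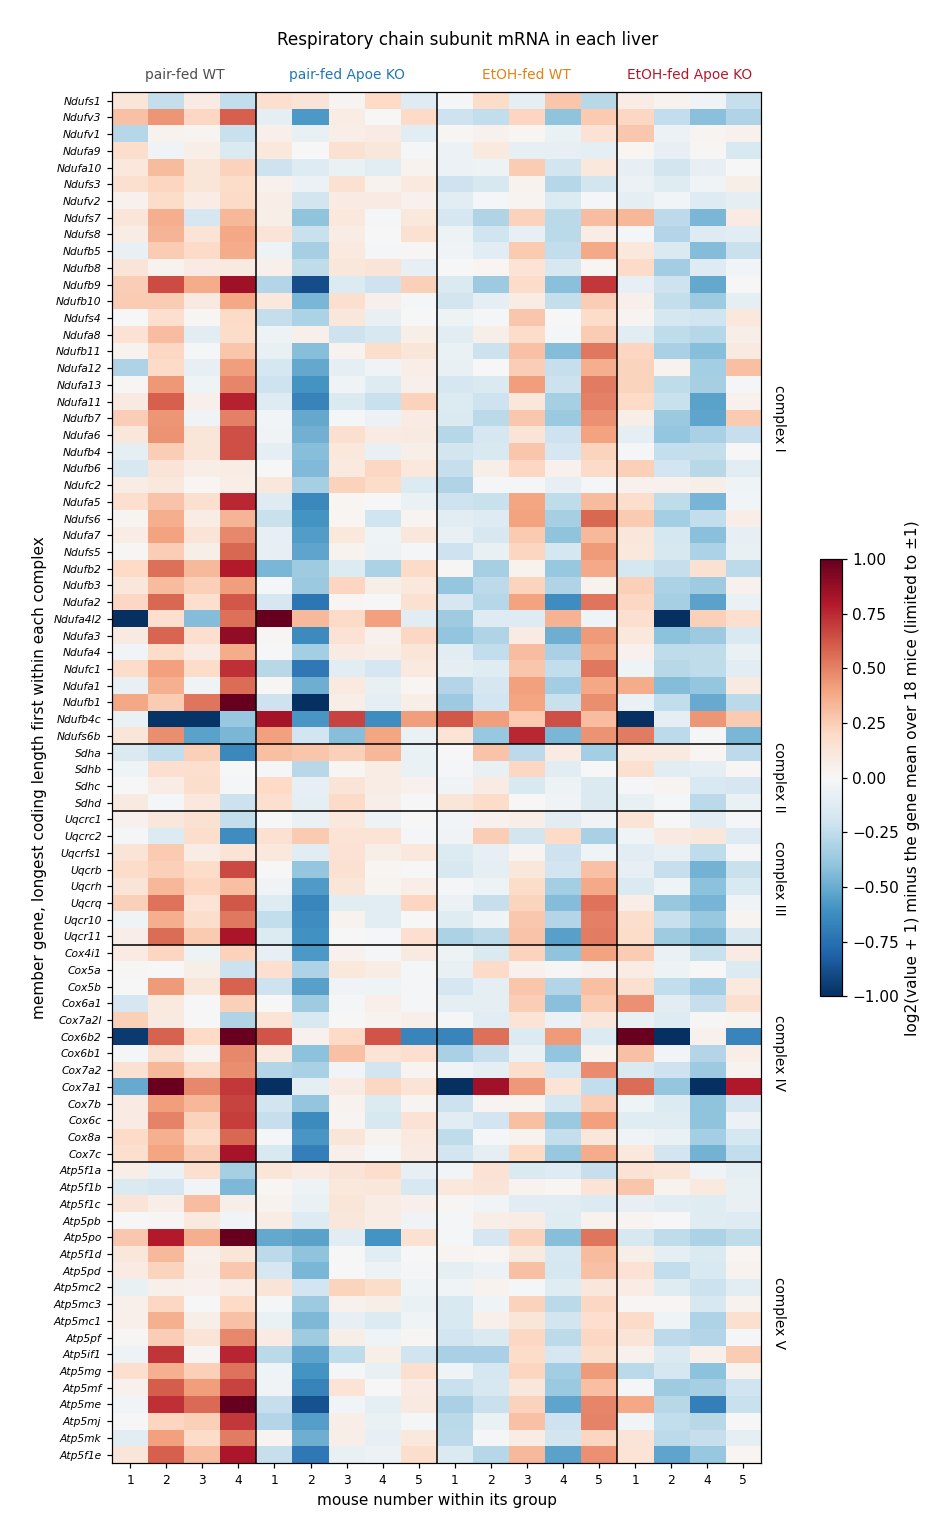
Heat map of 82 of the 83 members (rows, grouped by complex, longest coding length first) in the 18 mice (columns), as log2(value + 1) minus the gene's mean over 18 mice, red above and blue below it. Short members near the bottom of complexes I, III, IV and V are red in pair-fed WT mice 2 and 4 and EtOH-fed WT mouse 5 and blue in pair-fed *Apoe* KO mouse 2, while complex II and many of the longest members are paler. *Sdha* and *Uqcrc2*, both long, are an exception and are blue in pair-fed WT mouse 4.

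The first comparison asked how EtOH-fed *Apoe* KO livers differ from EtOH-fed WT livers, and in it no nuclear-encoded respiratory chain subunit passed the test in either direction. Across all genes, the KO group had 4.25% called higher and 0.445% lower (limma, Benjamini-Hochberg adjusted p under 0.05), that is, 639 and 67 genes, or 379 and 127 after scaling by median-of-ratios size factors, which moved the median of all genes from 0.11 to -0.02. No member had an unadjusted p under 0.05 either, against 16.1% of all genes higher and 2.78% lower by that rule. Log2 differences were negative for 70 and positive for 13 of the 83 members, with a median of -0.11 where the median of all genes was 0.11. The 95% interval of the difference lay within a 1.5-fold change for 72 members and within a 2-fold change for 80. The lowest adjusted p belonged to *Ndufa8*, an accessory subunit of complex I (log2 difference -0.22, adjusted p = 0.289). Without EtOH-fed *Apoe* KO mouse 1, the median was -0.17 and again 0 members were called.

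By complex, the median log2 difference between EtOH-fed *Apoe* KO and EtOH-fed WT mice was -0.12 in complex I, -0.01 in II, -0.15 in III, -0.08 in IV and -0.09 in V. In complex I the values ran from -0.59 (*Ndufb4c*) to 0.12 (*Ndufs3*, an iron-sulfur arm core subunit), in II from -0.13 (*Sdhd*) to 0.03 (*Sdha*) and in III from -0.25 (*Uqcrb*) to 0.03 (*Uqcrc2*). They ran from -0.44 (*Cox6b2*) to 0.21 (*Cox6b1*) in complex IV and from -0.28 (*Atp5po*) to 0.14 (*Atp5if1*, the ATPase inhibitor) in complex V. Without EtOH-fed *Apoe* KO mouse 1 the medians were -0.21, -0.05, -0.24, -0.17 and -0.15 in complexes I to V.

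Among pair-fed mice, *Apoe* KO livers had lower levels of 3 subunits than WT livers, *Atp5po* of complex V, *Ndufb9* of complex I and *Cox7a2* of complex IV, and higher levels of none. The 3 lower calls are 3.61% of members, against 0.864% of all genes called lower and 0.87% called higher. Most other members lay in the same direction without passing the test. Differences were negative for 66 of 83, the median was -0.28 against -0.00474 for all genes, and 43 members (51.8%) had an unadjusted p under 0.05 on the lower side, against 9.31% of all genes. On the higher side 2 members did (*Sdha* and *Uqcrc2*), against 10.6% of all genes. Members varied together from mouse to mouse within a group, so these 43 are not separate events.

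*Atp5po* encodes the oligomycin sensitivity-conferring protein, which joins the catalytic head of ATP synthase to its peripheral stalk. Its values were 1124, 1619, 1198 and 1884 in pair-fed WT mice, 652, 643, 866, 617 and 1037 in pair-fed *Apoe* KO, 918, 832, 1095, 693 and 1350 in EtOH-fed WT, while EtOH-fed *Apoe* KO mice gave 833, 781, 749 and 781. Every pair-fed WT mouse was above every pair-fed *Apoe* KO mouse. EtOH-fed WT mice (693 to 1350) overlapped both pair-fed groups, and EtOH-fed *Apoe* KO mice (749 to 833) lay within the pair-fed KO range. The log2 difference between pair-fed KO and WT was -0.93 (SE 0.18, 0.525-fold, adjusted p = 0.0204).

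*Ndufb9*, an accessory subunit of the membrane arm of complex I, was measured at 2495, 3314, 2724 and 3792 in pair-fed WT and 1718, 1138, 1914, 1825 and 2480 in pair-fed *Apoe* KO mice. EtOH-fed WT mice gave 1907, 1637, 2390, 1579 and 3445 and EtOH-fed *Apoe* KO mice 1993, 1821, 1474 and 2099. The pair-fed groups did not overlap, though the lowest WT and the highest KO mouse nearly met, and the log2 difference was -0.79 (SE 0.18, 0.579-fold, adjusted p = 0.0485).

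*Cox7a2*, the form of this small complex IV subunit used by liver, was at 3705, 4200, 3809 and 4599 in pair-fed WT and 2718, 2657, 3274, 2926 and 3402 in pair-fed *Apoe* KO mice. In EtOH-fed mice it was at 3252, 3116, 3776, 2950 and 4636 in WT and 3023, 2895, 2591 and 3411 in *Apoe* KO. Again the pair-fed groups did not overlap, with a log2 difference of -0.45 (SE 0.10, 0.734-fold, adjusted p = 0.0455). These calls depended on single mice: of 9 repeats each leaving out 1 mouse, *Atp5po* was called in 5, *Ndufb9* in 3 and *Cox7a2* in 2. No member was called lower without pair-fed *Apoe* KO mouse 1 or 4 or pair-fed WT mouse 2 or 4, and 1 without *Apoe* KO mouse 3, 2 without *Apoe* KO mouse 2, 5 without WT mouse 3 and 11 without *Apoe* KO mouse 5.

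**Figure D3:**
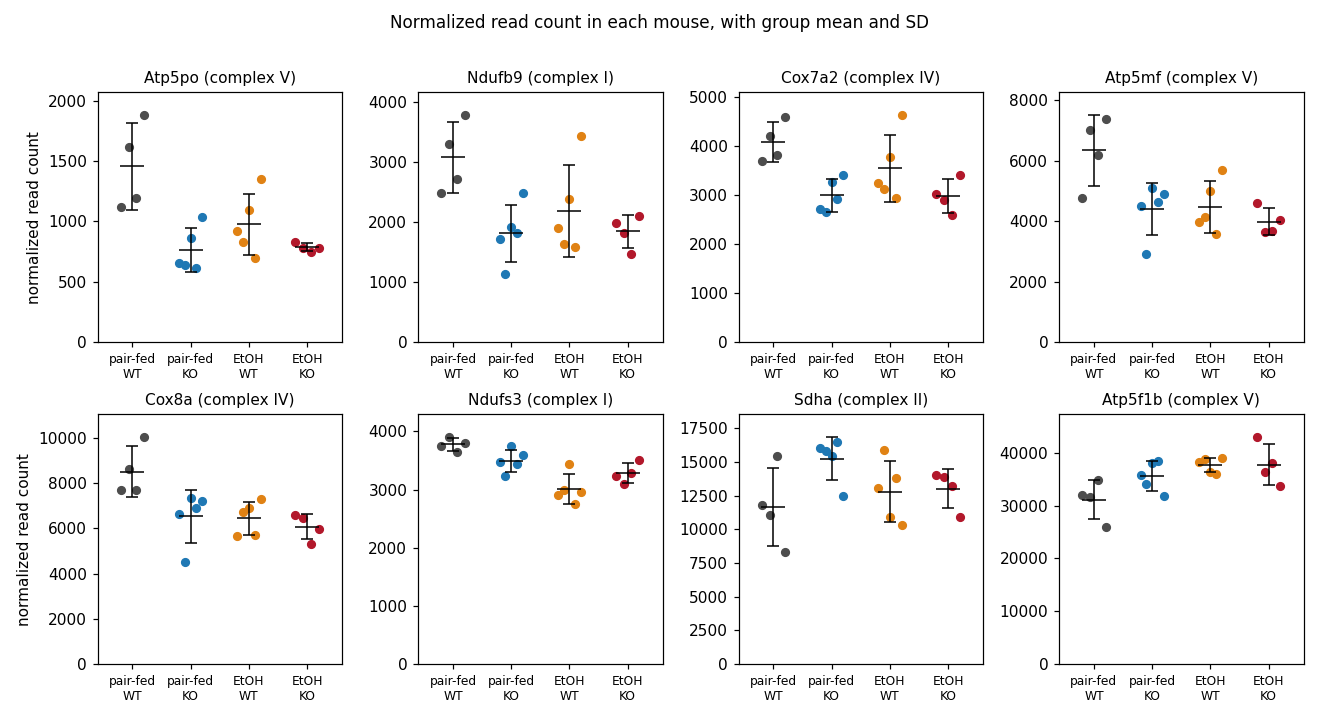
Normalized read count of the 6 protein-coding members that were called in any comparison and of *Sdha* and *Atp5f1b*, 1 point per mouse, with the group mean and SD as bars. For *Atp5po* the 4 pair-fed WT mice (1124 to 1884) lie above the 5 pair-fed *Apoe* KO mice (617 to 1037), whereas for *Sdha* the pair-fed WT mice (8358 to 15442) overlap the pair-fed *Apoe* KO mice (12464 to 16489).

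The lower values in pair-fed *Apoe* KO mice were spread over complexes I, III, IV and V, with medians of -0.26, -0.34, -0.40 and -0.32, while complex II had a median of 0.04. Unadjusted p-values under 0.05 on the lower side were found for 20 of 40 members in complex I, 5 of 8 in III, 6 of 13 in IV, 12 of 18 in V and 0 of 4 in II. In complex III, *Uqcrc2*, a large core protein of the matrix side, was at 0.29 (adjusted p = 0.247) and *Uqcr11*, one of the smallest subunits, at -0.54 (adjusted p = 0.101). In complex II the range was from -0.13 (*Sdhb*) to 0.41 (*Sdha*), and in complex IV from -0.57 (*Cox7a1*) to 0.04 (*Cox5a*). In complex V it was from -0.93 (*Atp5po*) to 0.20 (*Atp5f1b*). Short subunits just outside the threshold were *Ndufb2* (-0.68, adjusted p = 0.054), *Atp5me* of the membrane stalk region (-0.79, adjusted p = 0.0612) and *Atp5f1e*, the epsilon subunit of the rotor (-0.64, adjusted p = 0.0666). *Ndufa11* and *Ndufb2*, whose upstream stretches hold the NRF1 letters and the CRE, had differences of -0.56 and -0.68. *Cox8a*, with no match in that stretch, had -0.40, *Atp5mc3* with the ERRA letters there -0.18 and *Sdhd* with the GABPA letters there 0.07. These were picked after their values were seen, and members sharing letters differed. With the NRF1 letters there, *Atp5me* was at -0.79 and *Sdhb* at -0.13. *Atp5mc2*, also with them, averaged 3135 in pair-fed *Apoe* KO and 3038 in pair-fed WT mice. A link between letters and differences was not tested.

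In WT mice, EtOH feeding was accompanied by lower levels of *Ndufs3*, *Cox8a* and *Atp5mf* and a higher level of the pseudogene *Ndufb4c*. The 3 lower calls are 3.61% of members, against 6.52% of all genes called lower, and the 1 higher call 1.20%, against 6.19% called higher, so the members were called no more often than genes in general. The median was -0.20 against -0.0112 for all genes, differences were negative for 69 of 83 members, and 24 (28.9%) had an unadjusted p under 0.05 on the lower side, against 14.5% of all genes. On the higher side, 2 did, *Ndufb4c* and *Atp5f1b*, against 13.7%. This comparison uses the same pair-fed WT mice as the pair-fed genotype comparison, so like values in both are not independent. Side by side, pair-fed genotype and WT diet differences were -0.93 and -0.58 for *Atp5po*, -0.79 and -0.54 for *Ndufb9*, -0.45 and -0.22 for *Cox7a2*, -0.11 and -0.33 for *Ndufs3*, -0.40 and -0.40 for *Cox8a*, and -0.53 and -0.50 for *Atp5mf*.

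*Ndufs3*, a core subunit in the peripheral arm of complex I, had values of 3751, 3904, 3645 and 3807 in pair-fed WT and 2912, 2999, 3447, 2759 and 2954 in EtOH-fed WT mice. Pair-fed *Apoe* KO mice had 3469, 3231, 3742, 3441 and 3593 and EtOH-fed *Apoe* KO mice 3225, 3094, 3287 and 3507. The WT groups did not overlap, and the log2 difference of EtOH-fed from pair-fed WT was -0.33 (SE 0.09, 0.796-fold, adjusted p = 0.0336).

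*Cox8a*, a short membrane subunit of complex IV, was at 7698, 8615, 7669 and 10034 in pair-fed WT and 5654, 6698, 6897, 5722 and 7273 in EtOH-fed WT mice. It was at 6646, 4506, 7339, 6908 and 7204 in pair-fed *Apoe* KO and 6570, 6450, 5314 and 5967 in EtOH-fed *Apoe* KO mice. No EtOH-fed WT mouse reached the pair-fed WT range (-0.40, SE 0.12, 0.759-fold, adjusted p = 0.0403). The pair-fed groups did not overlap either, but that difference missed the threshold (adjusted p = 0.142).

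*Atp5mf*, subunit f of the ATP synthase membrane domain, was at 4765, 7039, 6193 and 7403 in pair-fed WT and 3966, 4141, 5001, 3592 and 5697 in EtOH-fed WT mice, which overlapped (-0.50, SE 0.16, 0.705-fold, adjusted p = 0.04999). *Ndufb4c* was at 46, 24, 24 and 37 in pair-fed WT and 75, 65, 58, 76 and 60 in EtOH-fed WT mice, with no overlap (1.05, SE 0.28, adjusted p = 0.0273). As a processed copy of *Ndufb4* it can share reads with its parent gene, so its value is uncertain. Leaving out 1 mouse at a time, the call held in 2 of 9 repeats for *Ndufs3* and *Atp5mf*, in 3 for *Cox8a* and in 4 for *Ndufb4c*. No member was called lower without pair-fed WT mouse 2 or 4 or EtOH-fed WT mouse 1, 2 or 4, 1 was without pair-fed WT mouse 3, 5 were without pair-fed WT mouse 1, and 20 without EtOH-fed WT mouse 5.

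By complex, the median log2 difference of EtOH-fed from pair-fed WT mice was -0.18 in I, -0.02 in II, -0.23 in III, -0.28 in IV and -0.23 in V. The lowest and highest protein-coding values outside the called genes were -0.57 (*Ndufa3*) in complex I, -0.12 (*Sdhc*) and 0.15 (*Sdha*) in II, -0.49 (*Uqcr11*) and 0.13 (*Uqcrc2*) in III, -0.43 (*Cox7c*) and 0.08 (*Cox5a*) in IV, and -0.64 (*Atp5me*) and 0.29 (*Atp5f1b*) in V. *Atp5f1b* was at 32079, 31585, 34806 and 25941 in pair-fed WT and 38266, 38857, 36442, 36058 and 39038 in EtOH-fed WT mice. The groups did not overlap but the difference did not pass the test (adjusted p = 0.12).

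In *Apoe* KO mice, EtOH feeding left no member called in either direction, although 16.3% of all genes were called higher and 6.92% lower (2446 and 1042 genes, or 1646 and 1616 after median-of-ratios scaling, which moved the median of all genes by the 0.13 that it lay above 0). The median of the members was -0.05 against 0.13 for all genes, with 29 positive and 54 negative differences and 0 unadjusted p-values under 0.05, against 25.4% of all genes on the higher and 10.5% on the lower side. The 95% interval lay within a 1.5-fold change for 77 of 83 members. Complex medians were -0.05, -0.16, -0.09, -0.05 and 0.01 in complexes I to V. The lowest adjusted p was that of *Sdha*, the flavoprotein of succinate dehydrogenase. It was at 16072, 15833, 15432, 16489 and 12464 in pair-fed and 14017, 13878, 13260 and 10924 in EtOH-fed *Apoe* KO mice, with -0.23 on the log2 scale (SE 0.11, adjusted p = 0.147). In WT mice *Sdha* was at 11824, 11041, 15442 and 8358 when pair-fed and 13068, 15899, 10918, 13827 and 10337 when EtOH-fed. The extremes were -0.54 (*Ndufa4l2*) and 0.20 (*Ndufa12*) in complex I, 0.05 (*Sdhb*) at the upper end of II, -0.21 (*Uqcrb*) and 0.09 (*Uqcr10*) in III, -0.59 (*Cox6b2*) and 0.13 (*Cox6a1*) in IV, and -0.16 (*Atp5mc2*) and 0.29 (*Atp5if1*) in V. Without EtOH-fed mouse 1 the median was -0.11, with 0 members called, and complex medians were -0.11, -0.18, -0.13, -0.06 and -0.08. After median-of-ratios scaling, 3 members were called lower (*Atp5f1c*, *Ndufs8* and *Uqcrfs1*, named after their values were seen), and 2 were without pair-fed *Apoe* KO mouse 2.

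The interaction asks whether the genotype difference on EtOH departed from that in pair-fed mice. No member passed this test, against 2.6% of all genes with a positive and 0.239% with a negative interaction, and 4 and 1 members had an unadjusted p under 0.05 on the positive and negative side, against 12.7% and 3.53%. Across all genes this was 392 and 36 calls, or 294 and 84 after median-of-ratios scaling. The median was 0.20 against 0.11 for all genes. The lowest adjusted p was that of *Atp5if1* (0.74, adjusted p = 0.125), which was at 317, 539, 336 and 558 in pair-fed WT, 273, 228, 276, 342 and 287 in pair-fed *Apoe* KO, 262, 262, 374, 292 and 371 in EtOH-fed WT mice, while EtOH-fed *Apoe* KO mice gave 339, 298, 340 and 392. *Atp5po* followed (0.65, adjusted p = 0.204). Without EtOH-fed *Apoe* KO mouse 1 the median was 0.13 and again 0 members were called. The 95% interval lay within a 2-fold change for only 68 members, so the absence of calls does not show that the genotype differences were alike on both diets.

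**Figure D4:**
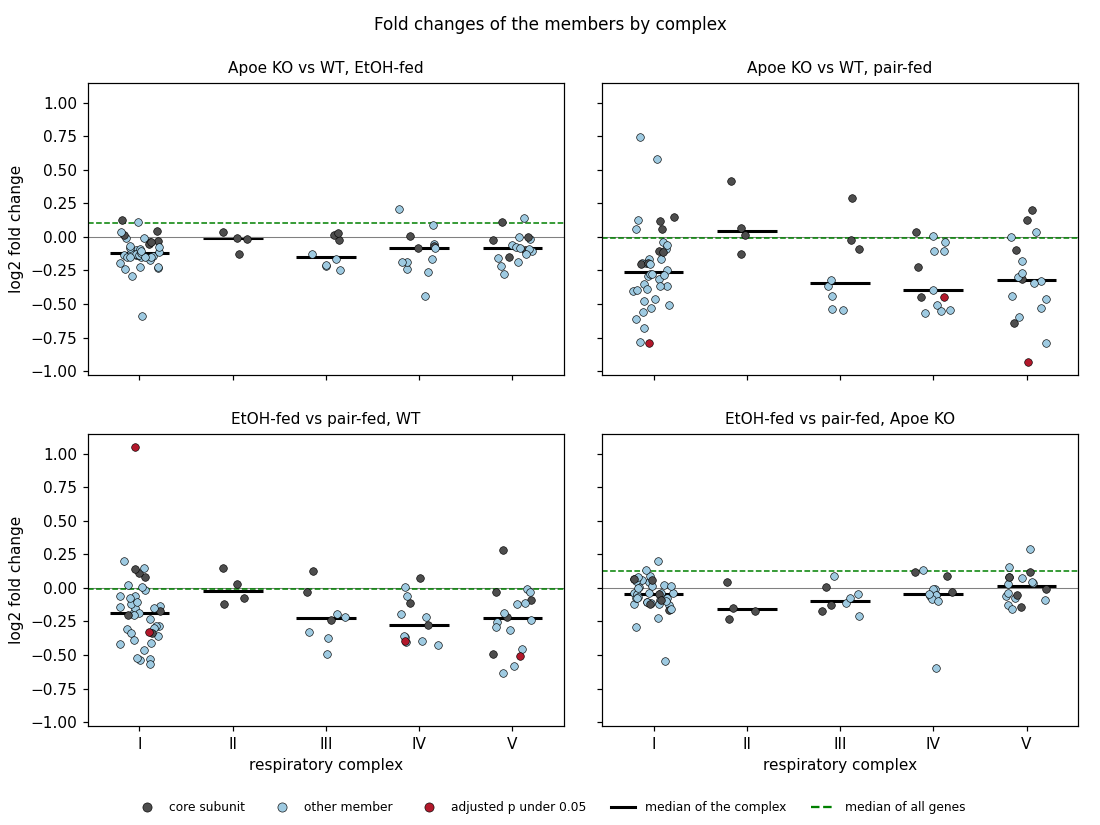
Log2 fold change of each member (1 point per gene) by complex in the 4 comparisons, with the median of each complex (black bar) and of all genes (green dashed line), core subunits in dark grey, other members in light blue and called members in red. The complex I, III, IV and V medians lie between -0.26 and -0.40 among pair-fed mice and between -0.15 and -0.08 among EtOH-fed mice.

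Core subunits lay nearer to 0 than the other members in the pair-fed genotype and WT diet comparisons. The 22 counted as core were 7 of complex I, all 4 of II, *Uqcrc1*, *Uqcrc2* and *Uqcrfs1* of III, *Cox4i1*, *Cox5a* and *Cox5b* of IV and the 5 subunits *Atp5f1a* to *Atp5f1e* of V. The nuclear-encoded complex IV subunits hold no redox centre, and with them among the other members, an alternative chosen after seeing the data, the core medians were -0.02 (pair-fed genotype) and -0.07 (WT diet) against -0.35 and -0.24 for the other 61. For all 22 core subunits, the median log2 difference was -0.06 between pair-fed *Apoe* KO and WT and -0.08 between EtOH-fed and pair-fed WT mice. For the 58 other protein-coding members it was -0.36 and -0.25. On the lower side, 3 of 22 core and 39 of 58 other members had an unadjusted p under 0.05 in the pair-fed comparison, and 5 and 18 in the WT diet comparison. In the other 2 comparisons the medians were -0.02 and -0.13 (EtOH-fed *Apoe* KO against WT) and -0.05 and -0.05 (EtOH-fed against pair-fed *Apoe* KO). Core subunits were also more even between mice of a group, with a median within-group SD of 0.13 log2 units against 0.25. The steadiest members were *Atp5f1c* (SD 0.0739), the gamma shaft of the rotor, and *Atp5pb* (0.0822) of the stator stalk. Core subunits are longer, however, with a median coding length of 805.5 bases against 333.

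Sorted by coding length, the pair-fed median log2 difference was -0.48 for 23 members of at most 300 bases, -0.28 for 37 members of 300 to 600, -0.11 for 11 of 600 to 1200 and 0.13 for 9 longer ones. Other protein-coding genes outside the ribosomal proteins had medians of -0.20 (249 genes), -0.06 (1317), -0.00039 (3731) and 0.03 (7551) in the same classes. In the WT diet comparison the members gave -0.37, -0.14, -0.20 and 0.11 and the other genes -0.16, -0.06, -0.01 and 0.03. Spearman's rho across genes between length and difference was 0.599 (pair-fed) and 0.541 (WT diet) over 80 members and 0.075 and 0.0722 over 12848 other genes. For the EtOH-fed genotype and *Apoe* KO diet comparisons it was 0.471 and -0.0762 over members and 0.05 and 0.0346 over the other genes. Genes share libraries and are not independent replicates, so these are descriptions.

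**Figure D5:**
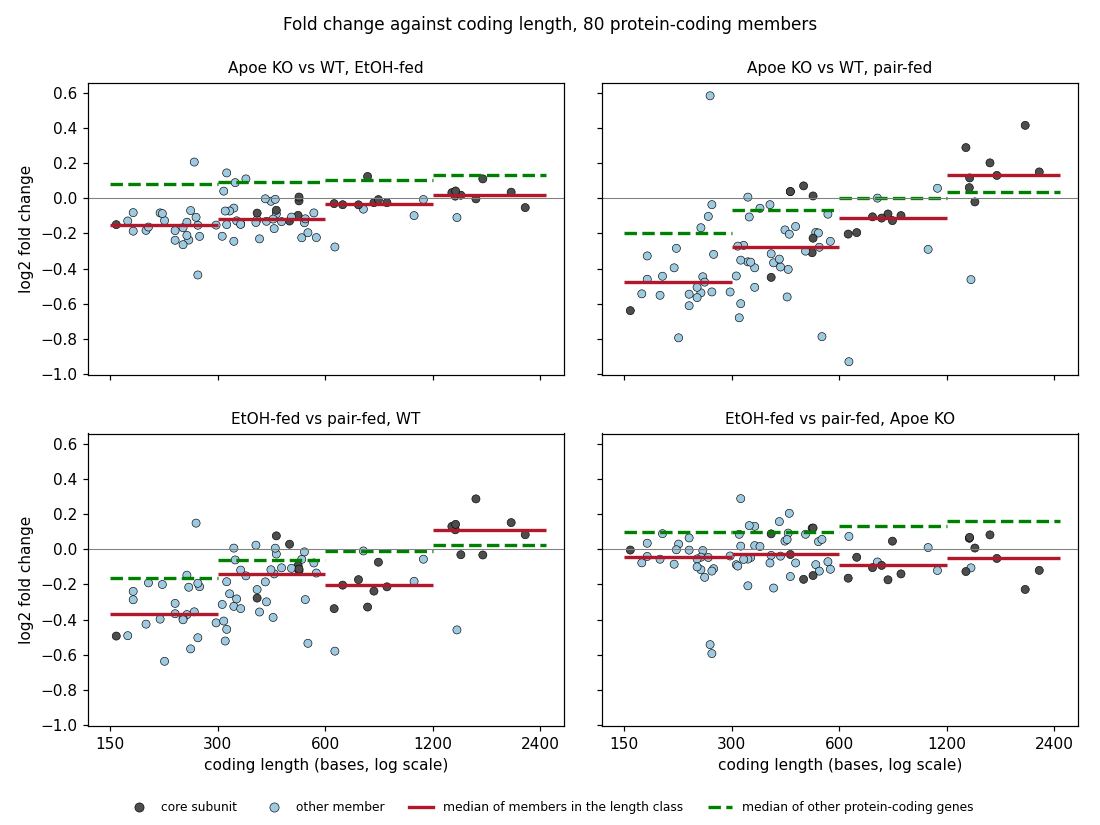
Log2 fold change against coding length (bases, log scale) of the 80 protein-coding members in the 4 comparisons, core subunits in dark grey, with the median of members (red) and of other protein-coding genes (green dashed) in 4 length classes. Among pair-fed mice the member medians run from -0.48 in the shortest to 0.13 in the longest class and those of other genes from -0.20 to 0.03.

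Within groups, the main axis of variation over the 80 protein-coding members held 61.3% of the variance, and 71 members had weights of the same sign. The 9 with the opposite sign were *Sdha*, *Sdhc*, *Sdhd*, *Uqcrc2*, *Ndufs1*, *Ndufa9*, *Atp5f1a*, *Atp5f1b* and *Atp5f1c*. Ribosomal protein mRNAs, which are also short, were high or low in some of the same mice. Their mean deviation was 0.16, 0.17, -0.03 and 0.29 in pair-fed WT mice, -0.17, -0.43, -0.10, -0.11 and 0.08 in pair-fed *Apoe* KO, -0.08, -0.17, 0.16, -0.13 and 0.50 in EtOH-fed WT and 0.03, -0.17, -0.04 and 0.03 in EtOH-fed *Apoe* KO mice. The median deviation of 249 other short genes minus that of 1747 genes of over 3000 coding bases was 0.04, 0.22, 0.14 and 0.25 in pair-fed WT and -0.04, -0.27, 0.07, -0.02 and 0.09 in pair-fed *Apoe* KO mice. It was -0.04, -0.05, 0.11, -0.10 and 0.03 in EtOH-fed WT and 0.05, -0.15, -0.26 and -0.02 in EtOH-fed *Apoe* KO mice. Pair-fed WT mice 2 and 4 were thus high and pair-fed *Apoe* KO mouse 2 low for members, ribosomal proteins and short genes alike. The measures parted in some other mice on both diets. In pair-fed WT mouse 3, members were at 0.11 and ribosomal proteins at -0.03. Pair-fed *Apoe* KO mouse 3 had 0.06 and -0.10. EtOH-fed WT mouse 5 was high for members (0.23) and ribosomal proteins (0.50), while its short-minus-long difference was 0.03 (short genes 0.11, long genes 0.09). In EtOH-fed *Apoe* KO mouse 4, members were at -0.26 and ribosomal proteins at -0.04. The short-minus-long difference of that mouse was also -0.26, with short genes at 0.02 and long genes at 0.29. The part of this in the member differences was not tested.

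Tissue and condition isoforms were scarce in liver, and *Cox4i2*, *Cox6a2* and *Cox8b* were not among the genes of the table. *Cox7a1*, the heart and muscle isoform, lay between 12 and 100 in the 18 mice, *Cox6b2*, the testis isoform, between 5 and 49, and *Ndufa4l2*, induced by hypoxia in many cells, between 21 and 106. The log2 ratio of *Ndufa4l2* to *Ndufa4*, now placed in complex IV, was -7.02 ± 0.484 (SD, n = 5) in pair-fed *Apoe* KO and -7.77 ± 0.572 (n = 4) in pair-fed WT mice, a difference of 0.75 (2-sided exact permutation p = 0.0952, adjusted p = 0.984 over 12 tests; the smallest p that this design allows is 0.0159). The other 11 ratio differences had adjusted p = 0.984 as well in the exact permutation test, which at such low counts leaves their size open to wide error. *Cox7a2l* had differences of -0.06, 0.01, 0.01 and -0.06 in the EtOH-fed genotype, pair-fed genotype, WT diet and *Apoe* KO diet comparisons.

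By their median, the 13 subunits encoded by mitochondrial DNA differed in the same direction as the members in the pair-fed genotype and WT diet comparisons. In *Apoe* KO mice on EtOH the direction was opposite, and between EtOH-fed genotypes it depended on 1 mouse. In pair-fed *Apoe* KO against WT mice all 13 differences were negative, with a median of -0.59. Called lower was 1, *ND3* (-1.03, adjusted p = 0.016), against 0.864% of all genes. In *Apoe* KO mice on EtOH against pair-fed, 11 were positive, with a median of 0.28 against 0.13 for all genes. Of the 13, 3 were called higher, against 16.3% of all genes. They were *ND1* (0.72, adjusted p = 0.00476), *ND2* (0.56, adjusted p = 0.0104) and *COX2* (0.45, adjusted p = 0.0329). When genotypes were compared on EtOH the median was -0.04, and *COX3* was lower (-0.83, adjusted p = 0.0173). Without EtOH-fed *Apoe* KO mouse 1 that median was 0.02, with 7 positive and 6 negative differences. In WT mice none was called on EtOH (median -0.18). Their summed share of reads was 7.77% ± 2.32 in pair-fed WT (SD, n = 4), ranging from 5.71% to 11.0%, and 5.16% ± 0.281 in pair-fed *Apoe* KO (n = 5), 6.43% ± 0.931 in EtOH-fed WT (n = 5) and 6.72% ± 0.619 in EtOH-fed *Apoe* KO mice (n = 4). Without EtOH-fed *Apoe* KO mouse 1, *ND1*, *ND2* and *COX3* were still called (*COX3* at -0.69, adjusted p = 0.0439), and *COX2* was not (0.31, adjusted p = 0.0854). At most 3 of the 13 were called in any comparison, and transcripts of mitochondrial DNA can share reads with nuclear copies.

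Few of the assembly factors that build the chain passed the test. Of the assembly factors (16 for complex I, 4 for II, 6 for III, 21 measured of 24 listed for IV and 3 for V), none was called in either genotype comparison. On EtOH, *Uqcc2* (-0.53, adjusted p = 0.0491) and *Pet100* (-0.69, adjusted p = 0.0252) were lower and *Cox11* (0.82, adjusted p = 0.0291) higher in WT, and *Coa4* (0.65, adjusted p = 0.0379) was higher in *Apoe* KO mice, though not without EtOH-fed mouse 1 (0.63, adjusted p = 0.0767). For these and the electron inputs below, the shares of all genes called on EtOH were 6.19% higher and 6.52% lower in WT mice. In *Apoe* KO mice they were 16.3% and 6.92%. *Ndufab1*, *Cyc1* and *Cycs*, parts of the chain outside the naming rule, were called in no comparison. Another 7 genes were listed as electron inputs to ubiquinone, although *Nnt* among them is not one. Of these 7, *Etfb*, a subunit of the electron carrier of fatty acid oxidation, was lower in pair-fed *Apoe* KO against WT (-1.05, adjusted p = 0.0364). It was also lower in WT on EtOH (-0.88, adjusted p = 0.0259), as was *Gpd2* (-0.45, adjusted p = 0.0259). *Etfa* (-0.36, adjusted p = 0.00742) and *Sqor* (-0.41, adjusted p = 0.0256) were lower in *Apoe* KO mice on EtOH.

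Of 12 genes for coenzyme Q synthesis, *Coq10b* was lower on EtOH in WT (-0.97, adjusted p = 0.00116) and *Apoe* KO mice (-1.003, adjusted p = 0.000559). *Coq8a*, a kinase-like protein of this pathway, fell in *Apoe* KO mice on EtOH, both against WT mice on the same diet (-0.64, adjusted p = 0.00521) and against pair-fed KO mice (-0.84, adjusted p = 0.000148). Of 18 genes for pyruvate dehydrogenase and the TCA cycle, 2 were higher on EtOH in WT mice (*Idh2* 0.46, *Pdhb* 0.66). In *Apoe* KO mice 5 were (among them *Cs* 0.50, *Mdh2* 0.38 and *Dlst* 0.33), or 4 without EtOH-fed mouse 1. In the genotype comparisons 0 were called. Of all genes, 6.19% were called higher and 6.52% lower on EtOH in WT mice, and 16.3% and 6.92% in *Apoe* KO mice. Of 12 carriers, porins and cristae genes, the uncoupling protein gene *Ucp2* was higher in EtOH-fed *Apoe* KO than WT (0.89, adjusted p = 0.0133) but lower in pair-fed *Apoe* KO than WT mice (-0.56, adjusted p = 0.0206). It was lower on EtOH in WT (-0.60, adjusted p = 0.0075) and higher in *Apoe* KO mice (0.85, adjusted p = 0.00282), as were *Slc25a4* (1.08, adjusted p = 0.00991) and *Vdac3* (0.27, adjusted p = 0.0253) in the latter.

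Of 18 measured regulators of mitochondrial biogenesis, 4 were higher and 1 lower on EtOH in WT mice. In *Apoe* KO mice 2 were higher and 1 lower (3 and 1 without EtOH-fed mouse 1), with none called between genotypes. *Ppara*, a nuclear receptor for fatty acids, was the lower one in both (-0.69, adjusted p = 0.00585; -0.65, adjusted p = 0.00278), and *Twnk*, the mitochondrial DNA helicase, was higher in both (0.51, adjusted p = 0.00849; 0.42, adjusted p = 0.0116). *Tfb2m* was higher in WT (0.37, adjusted p = 0.0252) and *Pprc1* in *Apoe* KO mice (0.85, adjusted p = 0.00233). Of 12 genes listed under mitochondrial stress, 8 were higher on EtOH in each genotype (7 in *Apoe* KO without EtOH-fed mouse 1). Among all genes, 6.19% were called higher and 6.52% lower in WT, and 16.3% and 6.92% in *Apoe* KO mice. The 8 included the transcription factor *Atf5* (1.88 in WT, adjusted p = 1.87e-06, and 1.64 in *Apoe* KO, adjusted p = 1.73e-05). *Trib3* was another (4.37 in WT, adjusted p = 1.39e-05, and 3.21 in *Apoe* KO, adjusted p = 4.45e-06). *Hspa9*, a mitochondrial chaperone, was higher in WT (0.79, adjusted p = 0.00388) and *Ddit3* in *Apoe* KO mice (2.69, adjusted p = 9.11e-07). Between genotypes, *Trib3* alone of these 12 was called, higher in pair-fed *Apoe* KO mice (1.44, adjusted p = 0.0138).

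Of 77 mitochondrial ribosomal proteins, *Mrps12* was lower in *Apoe* KO than WT mice when EtOH-fed (-0.77, adjusted p = 0.00605) and pair-fed (-0.60, adjusted p = 0.0247). On EtOH, 2 were higher (one was *Mrps18b*, 0.66) and 3 lower (among them *Mrpl48*, -0.39, and *Mrps28*, -0.55) in WT, and 4 higher (among them *Mrps18b*, 0.67, *Mrps2*, 0.36, and *Mrps23*, 0.36) and 2 lower in *Apoe* KO mice. Of 82 cytosolic ribosomal proteins, 77 had negative differences between pair-fed *Apoe* KO and WT mice, with a median of -0.33 and 1 called, *Rpl19* (-0.54, adjusted p = 0.0495). In EtOH-fed *Apoe* KO against WT mice their median was -0.09 with 0 called. For both ribosomal lists, the shares of all genes called on EtOH were 6.19% higher and 6.52% lower in WT mice. In *Apoe* KO mice they were 16.3% and 6.92%. On EtOH, 1 was called higher in WT (*Rpl7l1*, 0.50; median -0.10) and 4 in *Apoe* KO mice (among them *Rpl7l1*, 0.45, *Rpl10a*, 0.34, and *Rpl12*, 0.41; median 0.10). Leaving out EtOH-fed *Apoe* KO mouse 1, the list genes named here kept their direction and, other than *COX2* and *Coa4*, their call, with *Coq8a* at -0.68 and *Ucp2* at 0.74 between EtOH-fed genotypes and *Slc25a4* at 1.31 in *Apoe* KO mice on EtOH.

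Markers of non-parenchymal cells differed between the groups. The summed level of 7 Kupffer cell markers lay between 12632 and 24103 in EtOH-fed *Apoe* KO and between 5314 and 9859 in EtOH-fed WT mice, with all 7 called higher (median 1.20), and that of 7 monocyte-derived macrophage markers between 5083 and 8274 and between 1826 and 3052, with 5 called higher. The monocyte-derived list includes *Cd68*, whose protein the paper treats as a marker of all macrophages. Higher values of this list therefore do not single out monocyte-derived cells. Among 8 stellate cell and fibroblast markers 2 were called higher, against 4.25% of all genes. In the same comparison the members' median was -0.11, and hepatocyte markers summed to between 2540096 and 3500684 against 2403424 to 3951286, with 0 of 10 called. The highest Kupffer cell sum was that of EtOH-fed *Apoe* KO mouse 1, and without it 6 of the 7 Kupffer cell (median 1.19), 5 macrophage and 2 stellate cell markers were called higher.

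In pair-fed mice, where 3 members were lower in *Apoe* KO, Kupffer cell markers summed to between 8469 and 16814 in *Apoe* KO and between 8625 and 15377 in WT mice, with 0 called. The sinusoidal endothelial markers *Clec4g* (-0.66, adjusted p = 0.00998) and *Fcgr2b* (-0.63, adjusted p = 0.0318) were lower in pair-fed *Apoe* KO mice. The 6 endothelial markers summed to between 3962 and 5452 against 5491 to 6492 in WT. Of 7 macrophage markers only *Gpnmb* was called, higher in *Apoe* KO (2.03, adjusted p = 0.0353), with a mean of just 17.75 in pair-fed WT mice. The macrophage markers summed to between 2655 and 4692 in *Apoe* KO and between 2783 and 4733 in WT mice. Hepatocyte markers summed to between 3237532 and 4106000 against 2658476 to 3512552, and none was called, although 5 of 10 were higher at an unadjusted p under 0.05. In WT mice on EtOH, where 3 members were lower, hepatocyte marker sums overlapped (2403424 to 3951286 against 2658476 to 3512552 when pair-fed). Of the 10 hepatocyte markers, *Tat* (1.43, adjusted p = 0.00183), *Cps1* (1.12, adjusted p = 0.0049) and *Ass1* (0.73, adjusted p = 0.0391) were higher. Of 5 cholangiocyte markers, *Krt19* (-1.86, adjusted p = 0.0201) and *Spp1* (-0.82, adjusted p = 0.0326) were lower. These markers were named after their values were seen. On EtOH, 3 Kupffer cell markers were called lower in WT and 3 higher in *Apoe* KO mice, and 4 and 5 of 6 sinusoidal endothelial markers were called higher. None of the lymphocyte (6) and listed neutrophil (3 of 7) markers was called in any comparison. In *Apoe* KO mice on EtOH, 6 of 8 stellate cell and 3 of 5 erythroid markers were also called higher (6 and 0 without EtOH-fed mouse 1). The shares of all genes called on EtOH were 6.19% higher and 6.52% lower in WT, and 16.3% and 6.92% in *Apoe* KO mice. Between pair-fed genotypes they were 0.87% and 0.864%. The part of cell composition in the member values was not tested.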

How the data were processed

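Per the submitters' processing notes and the study's methods, the authors used Trimmomatic for trimming, HISAT2 for alignment (GRCm38), featureCounts for counting per gene and DESeq2, with versions and the scaling step not given in the sources used here. The deposited values are whole-number signal values, read counts per gene that the authors scaled to nearly equal totals, so no count test was run. The tables' baseMean, fold change, p-value and rank columns hold the authors' own comparisons and were not used. Rows repeated for 1 gene held equal values and were merged, leaving 15052 genes of 15247 rows, of which 15040 were placed in GENCODE M21. Values were tested as log2(value + 1) with limma 3.58.1 (R 4.3.3; lmFit, eBayes with trend) in the 2 groups compared, or in all 18 mice for the interaction, with Benjamini-Hochberg adjustment over all genes, and called at an adjusted p under 0.05. Fold changes on this scale understate those of low genes. Values of 1 member are not reported here singly, although it is counted in the summaries. Isoform ratios were tested by 2-sided exact permutation over mice. The script was tested on simulated data. Alternatives were median-of-ratios scaling, a pseudocount of 0.1, values of at least 10 in every mouse, sample weights, all groups in 1 fit, the mouse number as a block and each mouse left out, and a narrower core set chosen after seeing the data. The mouse numbers do not pair animals. The limma p-values set a group difference against variation between these mice, with each gene's variance drawn toward a trend over all genes. Those of the isoform ratios rest on regrouping the mice. Named members were the isoforms, 22 core subunits, called members and the lowest and highest of each complex in each comparison, and of other lists up to 3 called genes with the lowest adjusted p. Members just outside the threshold and those of the promoter display were added after their values were seen. The members and lists were chosen with earlier results of these data known. Python 3.11.15, pandas 2.3.3, scipy 1.17.1 and matplotlib 3.10.9 were used.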

Additional observations from a re-analysis of the deposited data

Results flagged for a closer look

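In 16 of 208 sets of values (a gene or a mean within 1 group), 1 mouse stood apart from the rest by Dixon's criterion, which chance alone gives in about 1 of 20, or 10.4. In 12 of these the mouse was pair-fed *Apoe* KO mouse 2, always the lowest of its group. The gap to the next mouse divided by the whole range within the group was 0.796 for the mean of all members (-0.37 log2 units from each gene's mean), 0.847 for complex I (-0.39), 0.742 for complex III (-0.34) and 0.727 for complex V (-0.41).

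Single members low in this mouse were *Ndufv2* (gap 0.851, value 3283), *Cox6a1* (0.828, 7422), *Cox8a* (0.797, 4506), *Atp5mf* (0.785, 2913), *Ndufa3* (0.775, 1822), *Ndufs7* (0.762, 2006), *Cox4i1* (0.739, 8043) and *Cox6b1* (0.716, 4606). Without this mouse, 2 members were called lower between pair-fed *Apoe* KO and WT mice, against 3 with it. Elsewhere, *Cox7a1* was lowest in pair-fed *Apoe* KO mouse 1 (gap 0.771, value 23), *Sdha* in pair-fed *Apoe* KO mouse 5 (0.763, 12464) and *Ndufa4l2* in EtOH-fed *Apoe* KO mouse 2 (0.952, 21), and *Uqcrb* was highest in pair-fed WT mouse 4 (0.893, 6653).

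No member passed the test of whether its genotype difference changed with diet (limma interaction term, all 18 mice), which does not show that those differences were alike. The 12 genes given here from the other lists, up to 3 per list with the lowest adjusted p, passed it. Across all genes, 2.6% were called with a positive and 0.239% with a negative interaction. The interaction was -0.75 for *Coq8a* (adjusted p = 0.0129), 1.68 for *Slc25a4* (adjusted p = 0.0195) and 1.45 for *Ucp2* (adjusted p = 0.00329). Among macrophage markers it was 1.67 for *Clec4f* (adjusted p = 0.00478), 1.26 for *Cd5l* (adjusted p = 0.0462), 1.39 for *Csf1r* (adjusted p = 0.0116), 1.38 for *Cd68* (adjusted p = 0.0117), 1.47 for *Lyz2* (adjusted p = 0.0116) and 1.72 for *Cd14* (adjusted p = 0.0156). It was 2.08 for *Col1a1* and 1.70 for *Col3a1*, the fibrillar collagen genes (both adjusted p = 0.0113), and 3.18 for the cholangiocyte keratin *Krt19* (adjusted p = 0.0156). Without EtOH-fed *Apoe* KO mouse 1 all 12 kept their direction and 11 their call, *Cd5l* being the exception (adjusted p = 0.083).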

How the results depend on the processing

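No result that was called changed direction under any alternative run, and in EtOH-fed *Apoe* KO against WT and the interaction 0 members were called under each of them. Among pair-fed mice, members called lower (3) became 1 with a pseudocount of 0.1, 8 with sample weights and 9 with the replicate block. Leaving out 1 mouse, they ranged from 0 to 11 and members called higher from 0 to 1 (*Sdha*, without pair-fed WT mouse 3). In WT mice on EtOH, members called lower (3) became 5 with median-of-ratios scaling, 19 with sample weights, 7 with all 4 groups in 1 fit and 5 with the block, and the 1 called higher became 0 in the last 2. Leaving out 1 mouse, they ranged from 0 to 20 lower and 0 to 1 higher. In *Apoe* KO mice on EtOH, members called lower (0) became 3 with median-of-ratios scaling, and ranged from 0 to 2 when 1 mouse was left out. The cause was not tested. Medians of all members ranged, with 1 mouse left out, from -0.17 to -0.04 (EtOH-fed genotype), -0.33 to -0.19 (pair-fed genotype), -0.28 to -0.15 (WT diet), -0.12 to 0.01 (*Apoe* KO diet) and 0.11 to 0.25 (interaction). Mouse numbers did not deviate together in every pair (correlations of -0.217 to 0.230), so the block rests on shared numbers only. It moved the calls over all genes from 639 and 67 to 961 and 122 (EtOH-fed genotype) and from 931 and 981 to 599 and 756 (WT diet). Of 4074 single-gene and group results under alternatives, 46 gained and 51 lost a call and 3 complex II medians moved by more than their spread, to -0.14, -0.29 and -0.25 with median-of-ratios scaling. Depth limits the low members most, since 1 read was worth up to 5.82 units.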
